A study of Mus musculus with 8 samples.

Results

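Egfr, Erbb3, Hbegf, Errfi1, Rhbdf2 and Adam17 encode an EGF receptor, a partner receptor, a ligand, a feedback inhibitor and a pair of proteins of ligand release. These 6 genes were chosen with earlier results of these data known. They were taken by their symbols from the 12193 gene loci measured, and their levels were followed across all 8 libraries of the study. The study used AtT-20, a mouse pituitary tumour line of corticotrope type, which makes Pomc, and asked how EGF acts on its transcription. A control AtT-20 line with the genotype Neo received water, labelled 3 h. An AtT-20 line with the genotype EGFR received water, also labelled 3 h, or EGF for 3 h or for 18 h. All cells grew in DMEM with 10% FBS, and each of the 4 groups held 2 libraries, named in the text by group and replicate (Neo, water, 3 h EGF, 18 h EGF). The EGF dose, the species and promoter of the introduced EGFR, and whether a line is 1 clone are not in the labels. No Neo library received EGF, and no water library is labelled 18 h, so EGF and time in culture cannot be told apart at 18 h.

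EGF binds the extracellular domain of EGFR, which pairs with itself or with another ERBB receptor and phosphorylates its own tail, where SH2 adapters dock. ERBB3 binds neuregulins, has a weak kinase and signals through a partner receptor, mainly to PI3K. HB-EGF is made as a membrane precursor, and the metalloprotease ADAM17 cuts it to release a soluble EGFR ligand. RHBDF2, also called iRhom2, is an inactive rhomboid protein that carries ADAM17 out of the endoplasmic reticulum. ERRFI1, also called MIG6, is induced by growth factors, binds the active EGFR kinase domain and blocks it. Corticotropes carry EGFR, and mutations of the deubiquitinase USP8 found in corticotrope tumours are known to raise receptor recycling.

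The values were FPKM, the fragments of a gene divided by its transcript length and by the library total, and levels are given as mean FPKM ± SD over n = 2 libraries. Differences were taken between log2(FPKM + 1) values, and adding 1 makes them too small where FPKM is low. They were tested with limma over 10874 genes, and a gene was called at a Benjamini-Hochberg adjusted p below 0.05. Whether replicates are separate cultures is not in the labels, so the p-values rest on a spread between samples that may be only technical. Each library summed to between 683834 and 808072 FPKM, with a median of 14.3 to 14.7, and an estimated depth of 53.6 to 64.8 M fragments. The depth is approximate, since the method limits the range it can take. Small RNA genes held 35.1 and 29.5% of the FPKM sum in the Neo libraries and 25.3 to 28.8% in the other 6. Of 8 corticotrope markers 7 had values, with Pomc at 6981 to 8930 FPKM, and their summed level was 12132 and 12204 FPKM in Neo, 11337 and 11432 in water, 9811 and 10411 at 3 h of EGF and 10833 and 11277 at 18 h. Most of this sum was Pomc, and the markers did not all move together. At 18 h of EGF, Tbx19, Pcsk1, Cpe and Chga lay above both water libraries, as did 28.9% of all genes tested. Pomc and Neurod1 lay below both, as did 43.1%, and Pitx1 overlapped. Markers of other pituitary cells, fibroblasts, endothelium and blood were not analysed here. In these bulk samples fewer cells that express a gene and less RNA per cell cannot be told apart.

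All 6 genes are protein-coding, and their mm10 positions follow the deposited loci. Egfr (ENSMUSG00000020122) lies on chromosome 11 at 16752203 to 16918158, plus strand. Erbb3 (ENSMUSG00000018166) lies on chromosome 10 at 128567523 to 128589652, minus strand. Hbegf (ENSMUSG00000024486) lies on chromosome 18 at 36504929 to 36515805, minus strand. Errfi1 (ENSMUSG00000028967) lies on chromosome 4 at 150853919 to 150868892, plus strand. Rhbdf2 (ENSMUSG00000020806) is on chromosome 11 at 116598165 to 116627019, minus strand, and Adam17 (ENSMUSG00000052593) on chromosome 12 at 21323509 to 21373632, minus strand. All 6 passed the filter, which asked for 1 FPKM or more in 2 or more libraries. Egfr passed it only through the 6 libraries of the EGFR line, and the other 5 genes were above 1 FPKM in all 8 libraries.

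Ligand, inhibitor and iRhom2 transcripts were higher with EGF at both times, and the Erbb3 transcript was lower at 3 h. At 3 h, 4 of the 6 genes were called higher and 1 lower, where 11.8% of all genes tested were called higher and 19.7% lower. At 18 h, 4 were called higher and none lower, against 13.2 and 18.7% of all genes. Hbegf, Errfi1, Rhbdf2 and Adam17 were the 4 genes called higher at each time. Both EGF comparisons use the same water libraries, so their calls are not independent. The 6 genes were also chosen with earlier results known, so their counts and medians beside those of all genes are a description. Between the lines in water, none of the 5 genes besides the introduced Egfr was called higher and 1 was called lower, Errfi1, against 3.11 and 2.90% of all genes. From 3 h to 18 h of EGF, Erbb3 was called higher and Hbegf, Errfi1 and Rhbdf2 lower, against 17.7 and 16.0% of all genes. Between the lines, both EGFR libraries lay above both Neo libraries for 1 of the 5 genes besides Egfr, Rhbdf2, and below for 1, Errfi1, against 33.6 and 24.2% of all genes. At 3 h both EGF libraries lay above both water libraries for 5 of the 6 genes and below for 1, against 26.7 and 43.8%, and at 18 h 5 and 1, against 28.9 and 43.1%. Between 18 h and 3 h they were 1 and 4, against 35.2 and 33.1%. The median difference over the 6 genes was 0.40 at 3 h and 0.31 at 18 h, where the medians over all genes tested were -0.04 and -0.03. Between 18 h and 3 h it was -0.14 against 0.01.

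**Figure D1:**
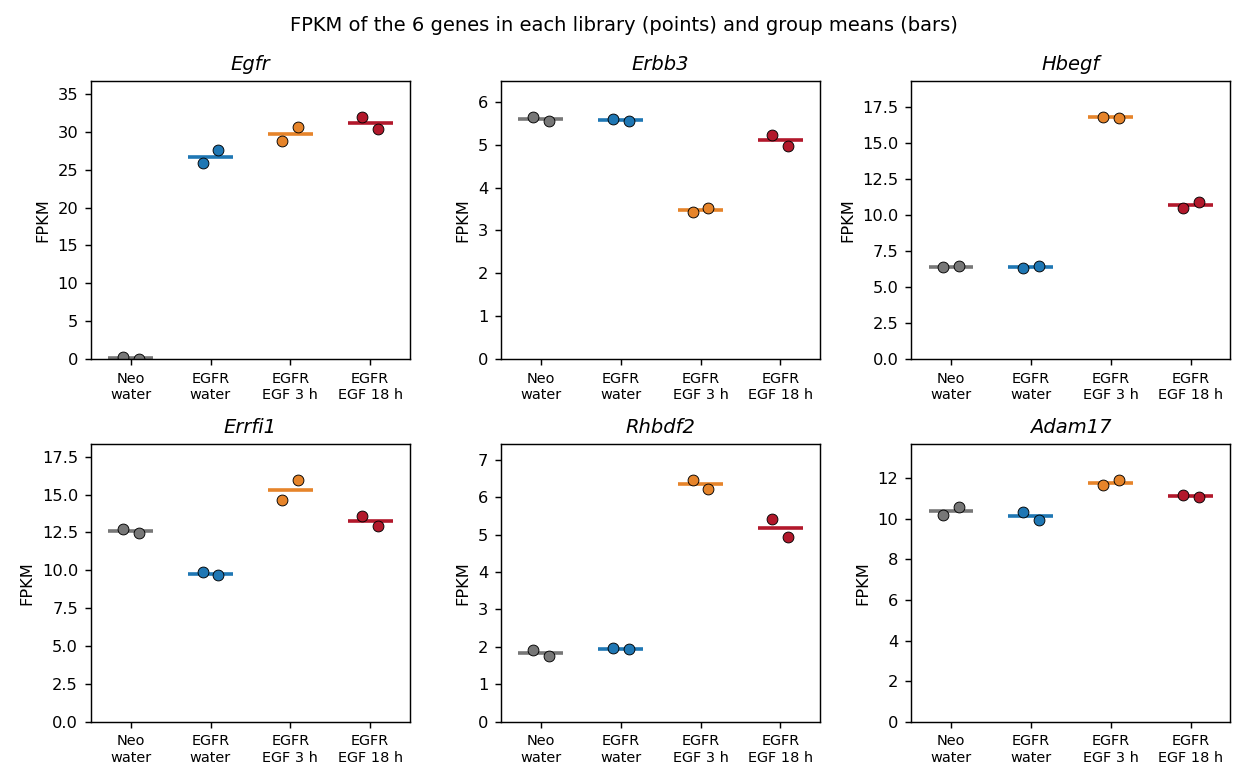
FPKM (y axis, from 0, one scale per gene) of the 6 genes in each of the 8 libraries (points) and the mean of each group of 2 libraries (bars). Egfr is near 0 in Neo and between 25.9 and 31.9 FPKM in the EGFR line, Erbb3 is lowest at 3 h of EGF, and Hbegf, Errfi1, Rhbdf2 and Adam17 are highest at 3 h of EGF.

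Egfr is the EGF receptor itself and the gene introduced in the EGFR line. It was 0.227 and 0.0663 FPKM in the Neo libraries and 25.9 and 27.5 FPKM in the water libraries of the EGFR line. With EGF it was 28.8 and 30.6 FPKM at 3 h and 31.9 and 30.3 FPKM at 18 h. The Neo libraries were far below all 6 libraries of the EGFR line, which spanned a narrow range. Egfr averaged 0.147 ± 0.114 FPKM in Neo and 26.7 ± 1.13 in EGFR water, a 182-fold ratio of mean FPKM and a difference of 4.60. The ratio rests on low Neo values and was 403-fold without Neo 1 and 118-fold without Neo 2. These are given as a description, since Egfr is the introduced gene and passed the filter only through the EGFR line. The Neo mean was at percentile 0.257 of the genes tested and the EGFR water mean at percentile 63.8. The pseudocount sets the size of this difference, which was 6.85 with a pseudocount of 0.1. FPKM here counts what was assigned to the mouse locus, whatever species the introduced sequence came from.

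Egfr differed little with EGF. It averaged 29.7 ± 1.29 FPKM at 3 h, 1.11 times the water mean (difference 0.15, 95% interval -0.02 to 0.31, limma adjusted p = 0.157). At 18 h it averaged 31.1 ± 1.11 FPKM, 1.16 times the water mean (difference 0.21, 95% interval 0.04 to 0.38, limma adjusted p = 0.0590). Neither passed the threshold, although both EGF groups lay above both water libraries, as did the libraries of 26.7% of all genes at 3 h and 28.9% at 18 h. The 18 h difference was called with either Neo library left out (limma adjusted p = 0.0218 without Neo 1 and 0.0215 without Neo 2). It was also called with median-ratio scaling (limma adjusted p = 0.0365), with a common sum (0.0402), among protein-coding genes (0.0269) and with only the 2 groups fitted (0.0190). The 3 h and 18 h libraries overlapped (difference 0.07, limma adjusted p = 0.505).

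Erbb3 encodes the other ERBB receptor with values, a neuregulin receptor. Its level was 5.64 and 5.55 FPKM in Neo and 5.59 and 5.55 FPKM in EGFR water. It was 3.44 and 3.52 FPKM at 3 h of EGF and 5.23 and 4.98 FPKM at 18 h. Both 3 h libraries were below the other 6, and Neo and water libraries overlapped. Erbb3 averaged 3.48 ± 0.0598 FPKM at 3 h against 5.57 ± 0.0332 in water and fell by 37.5% (difference -0.55, SE 0.0458, 95% interval -0.66 to -0.44, limma adjusted p = 3.80e-04). It was the 92nd largest decrease among 10874 genes. At 18 h Erbb3 averaged 5.10 ± 0.180 FPKM, and the difference from water of -0.11 (95% interval -0.21 to 0.00) did not pass the test (limma adjusted p = 0.118). The 18 h libraries were still below both water libraries, as for 43.1% of all genes. Between 3 h and 18 h Erbb3 rose by 0.45 (SE 0.0458, limma adjusted p = 9.04e-04). The line difference in water was -0.01 with a 95% interval of -0.11 to 0.10 (limma adjusted p = 0.954), and its sign changed with the scaling, to 0.066 with libraries set to a common sum.

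The ratio of Egfr to Erbb3 FPKM, both per kilobase, was 0.0402 and 0.0120 in Neo. It was 4.64 and 4.96 in EGFR water, 8.37 and 8.68 at 3 h of EGF and 6.10 and 6.10 at 18 h. The ratio was thus highest at 3 h, the time at which the Erbb3 level was lowest. These are transcript levels, and receptor protein was not measured. Erbb2 and Erbb4, the other receptors of the family, were not analysed here.

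Hbegf, the ligand precursor, gave the closest replicates of the 6 genes at 3 h. It was 6.40 and 6.42 FPKM in Neo, 6.30 and 6.45 in EGFR water, 16.8 and 16.8 at 3 h of EGF and 10.5 and 10.9 at 18 h. The 3 h libraries stood above all others, the 18 h libraries came next, and Neo and water overlapped. Hbegf averaged 16.8 ± 0.0112 FPKM at 3 h against 6.37 ± 0.107 in water, a 2.63-fold ratio (difference 1.27, SE 0.0373, 95% interval 1.18 to 1.36, limma adjusted p = 3.94e-06). It was the 35th largest increase at 3 h. At 18 h Hbegf averaged 10.7 ± 0.285 FPKM, 1.68 times the water mean (difference 0.66, SE 0.0373, 95% interval 0.58 to 0.75, limma adjusted p = 3.52e-05), and ranked 197 among increases. Hbegf then fell by 0.61 from 3 h to 18 h (SE 0.0373, limma adjusted p = 1.52e-04). Neo and EGFR water differed by -0.01 (95% interval -0.10 to 0.08, limma adjusted p = 0.912), a sign that changed to 0.065 with a common sum. The Hbegf mean moved from percentile 19.2 of the genes tested in water to percentile 48.9 at 3 h and 33.6 at 18 h. Hbegf was the only one of 11 listed ERBB ligands with values, and the other 10 were not analysed here.

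**Figure D2:**
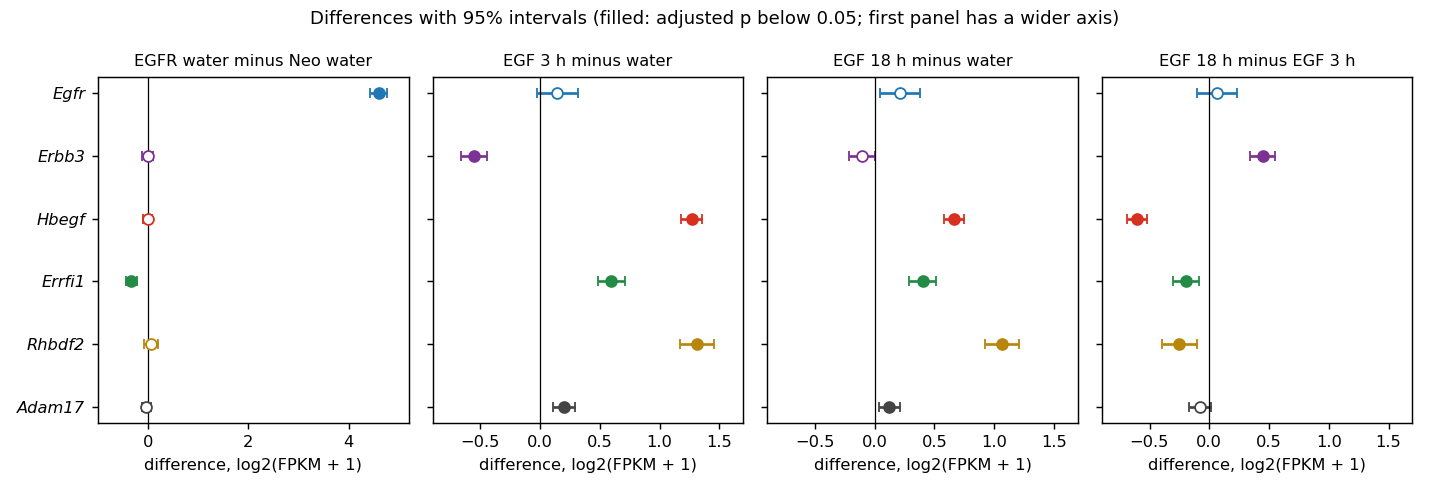
Differences on the log2(FPKM + 1) scale (x axis, wider in the first panel) of the 6 genes in 4 comparisons of 2 libraries against 2, with 95% intervals from limma, filled where the adjusted p was below 0.05 (Egfr in the first panel is the introduced gene and is a description). With EGF, Rhbdf2 and Hbegf show the largest differences (1.31 and 1.27 at 3 h), and Erbb3 has the only called decrease against water.

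Errfi1, the inhibitor that binds the EGFR kinase domain, was the only one of the other 5 genes to be called between the lines. Its level was 12.7 and 12.5 FPKM in Neo, 9.86 and 9.70 in EGFR water, 14.7 and 16.0 at 3 h of EGF and 13.6 and 12.9 at 18 h. Water was the lowest group, and Neo lay between water and both EGF groups without overlap. Errfi1 averaged 9.78 ± 0.115 FPKM in EGFR water and 12.6 ± 0.193 in Neo, a ratio of 0.777 (difference -0.33, SE 0.0477, 95% interval -0.45 to -0.22, limma adjusted p = 0.0126). This call was lost without Neo 1, water 1 or water 2 (limma adjusted p = 0.0740, 0.0862 and 0.0896) and with a common sum (-0.26, limma adjusted p = 0.0557).

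With EGF, Errfi1 averaged 15.3 ± 0.911 FPKM at 3 h, 1.57 times the water mean (difference 0.60, SE 0.0477, 95% interval 0.49 to 0.71, limma adjusted p = 3.26e-04). At 18 h it averaged 13.3 ± 0.459 FPKM, 1.36 times the water mean (difference 0.40, SE 0.0477, 95% interval 0.29 to 0.51, limma adjusted p = 9.42e-04). The 3 h difference ranked 144 among increases and the 18 h difference ranked 446. Against Neo, the 18 h difference was 0.07 and did not pass the test (limma adjusted p = 0.314). Between 3 h and 18 h Errfi1 fell by 0.19 (SE 0.0477, limma adjusted p = 0.0197), a call lost without 3 h EGF 2 or 18 h EGF 2 (limma adjusted p = 0.0762 and 0.107).

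Errfi1 has 2 start sites in the RefSeq promoter table (GRCm38.p6), and their upstream windows are shown because it is the called gene with promoter entries that rose most with EGF. Each window holds the 250 bases before a start, on the plus strand, at chr4:150853546-150853795 and chr4:150854820-150855069. Capitals mark a match to the CRE letters, the palindrome bound by CREB and ATF proteins.
Errfi1 first start: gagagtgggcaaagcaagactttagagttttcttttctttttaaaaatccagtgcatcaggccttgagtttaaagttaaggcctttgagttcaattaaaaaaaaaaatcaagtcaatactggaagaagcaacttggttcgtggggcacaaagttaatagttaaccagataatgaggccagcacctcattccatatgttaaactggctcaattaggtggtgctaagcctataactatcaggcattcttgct
Errfi1 second start: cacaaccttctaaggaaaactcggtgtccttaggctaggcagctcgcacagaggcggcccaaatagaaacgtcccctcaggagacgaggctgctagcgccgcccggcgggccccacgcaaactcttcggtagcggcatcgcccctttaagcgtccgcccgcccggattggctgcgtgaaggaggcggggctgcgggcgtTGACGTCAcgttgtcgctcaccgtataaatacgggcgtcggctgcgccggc
The first window is 38.0% G and C and the second 64.8%, against a median of 52.4% over 32851 windows of the table. Searched on both strands were AP-1 (TGANTCA), STAT (TTCNNNGAA), CRE (TGACGTCA), EGR (GCGGGGGCG) and ETS (CCGGAAGT). The second window holds 1 match, to CRE, at 51 to 44 bases before the start, and the first holds none. CRE letters occur in 1.55% of all windows, AP-1 in 6.75%, STAT in 7.02%, EGR in 2.57% and ETS in 2.88%. The windows of Egfr (60.8% G and C) and Adam17 (70.4%) hold none of the 5 motifs, and Erbb3, Hbegf and Rhbdf2 were not matched to the table. The FPKM values do not separate the 2 Errfi1 starts.

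Rhbdf2, the iRhom2 gene, showed the largest difference with EGF of the 6 genes at both times. It was 1.92 and 1.76 FPKM in Neo and 1.97 and 1.93 in EGFR water. It was 6.46 and 6.23 FPKM at 3 h of EGF and 5.42 and 4.94 at 18 h. All 4 EGF libraries were above the 4 water libraries of both lines. Rhbdf2 averaged 6.35 ± 0.163 FPKM at 3 h against 1.95 ± 0.0266 in water, a 3.25-fold ratio (difference 1.31, SE 0.0616, 95% interval 1.17 to 1.46, limma adjusted p = 3.66e-05), and ranked 31 among increases. At 18 h it averaged 5.18 ± 0.344 FPKM, a 2.65-fold ratio (difference 1.06, SE 0.0616, 95% interval 0.92 to 1.21, limma adjusted p = 3.82e-05), and ranked 75. With its low level in water, percentile 2.92 of the genes tested, the log2(FPKM + 1) scale understates its fold change. From 3 h to 18 h Rhbdf2 fell by 0.25 (SE 0.0616, limma adjusted p = 0.0201), a call lost without 3 h EGF 1 or 18 h EGF 2 (limma adjusted p = 0.0911 and 0.114). The lines differed by 0.06 in water (95% interval -0.09 to 0.20, limma adjusted p = 0.590).

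Adam17, the protease that RHBDF2 carries, was higher at 3 h by a much smaller difference. It was 10.2 and 10.6 FPKM in Neo, 10.3 and 9.95 in EGFR water, 11.7 and 11.9 at 3 h of EGF and 11.2 and 11.1 at 18 h. The EGF libraries lay above all Neo and water libraries, and the whole range was narrow. Adam17 averaged 11.8 ± 0.175 FPKM at 3 h against 10.1 ± 0.268 in water, a 1.16-fold ratio (difference 0.20, SE 0.0388, 95% interval 0.11 to 0.29, limma adjusted p = 0.00956), and ranked 972 among increases. This call was lost without water 2 (difference 0.18, limma adjusted p = 0.0689). At 18 h it averaged 11.1 ± 0.0846 FPKM, a 1.10-fold ratio just past the threshold (difference 0.12, SE 0.0388, 95% interval 0.03 to 0.21, limma adjusted p = 0.0471). The 18 h call was lost under 11 of 18 other settings, among them the removal of any library but Neo 1, with adjusted p-values of 0.0501 to 0.224. The lines differed by -0.03 in water (95% interval -0.12 to 0.06, limma adjusted p = 0.646), a sign that turned to 0.045 with a common sum.

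Adam17 shares 311 exon bases with Iah1, a protein-coding gene on the opposite strand, and no source used here gives the strandedness. If the libraries are unstranded, reads of this stretch cannot be assigned to 1 of the 2 genes. Iah1 was 20.1 and 20.5 FPKM in Neo, 19.9 and 19.5 in water, 17.1 and 19.7 at 3 h of EGF and 21.5 and 22.0 at 18 h. The Iah1 libraries at 3 h were below or among those of water and at 18 h above them, and the part of Iah1 in the Adam17 level was not tested. The ratio of Adam17 to Rhbdf2 FPKM was 5.30 and 6.04 in Neo and 5.24 and 5.14 in water. With EGF it was 1.81 and 1.91 at 3 h and 2.06 and 2.24 at 18 h, below all 4 libraries without EGF.

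The order of the group means differed among the 6 genes. Hbegf, Errfi1 and Adam17 shared 1 order, with water lowest, then Neo, 18 h of EGF and 3 h of EGF. For Hbegf every step but that from water to Neo passed the limma test, for Errfi1 every step but that from Neo to 18 h, and for Adam17 no step passed. Rhbdf2 ran from Neo through water and 18 h to 3 h, and every step but the first passed. Erbb3 was lowest at 3 h, followed by 18 h, water and Neo, and only the step from 3 h to 18 h passed. Egfr ran from Neo through water and 3 h to 18 h, and neither step within the EGFR line passed. Of all genes tested, 13.9% were called higher at 18 h of EGF than in Neo, a contrast of both line and EGF in which Hbegf passed and Errfi1 and Adam17 did not.

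**Figure D3:**
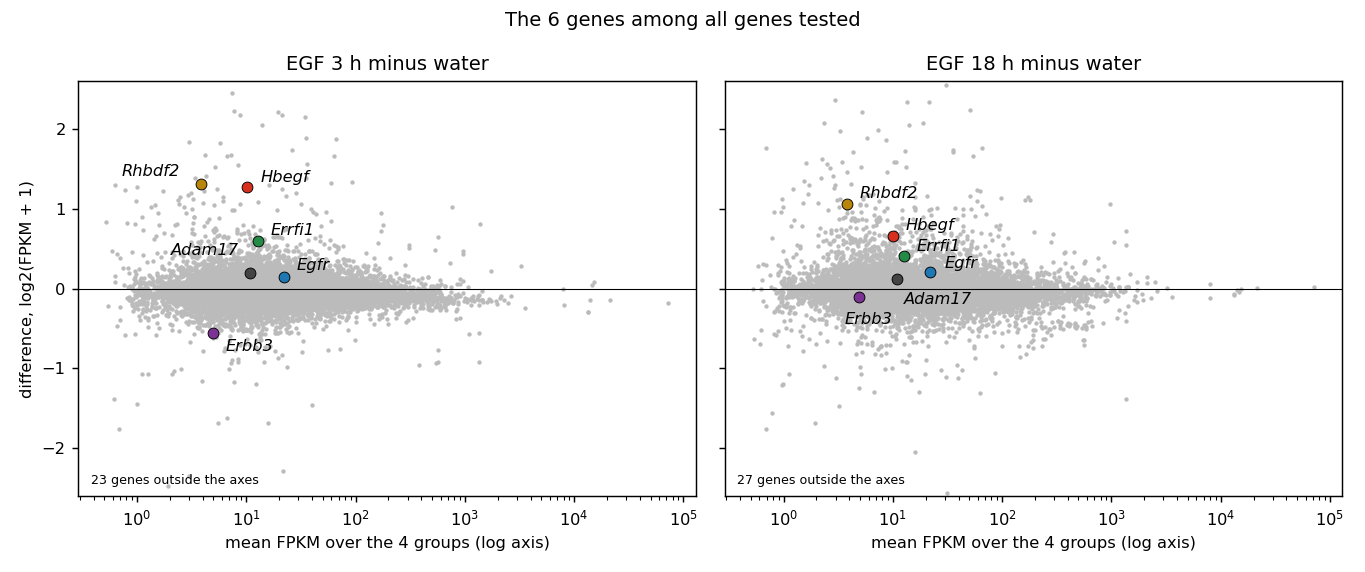
Difference with EGF at 3 h (left) and 18 h (right) on the log2(FPKM + 1) scale (y axis, limited to 2.6 either way) against mean FPKM over the 4 groups (x axis, log scale) for all 10874 genes tested, with the 6 genes in colour. Rhbdf2 and Hbegf sit at the upper edge of genes of like level at 3 h, Erbb3 sits near the lower edge, and Adam17 and Egfr lie within the cloud.

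The share of higher calls over all genes depended on the scaling. At 3 h, 1283 genes were called higher and 2142 lower as deposited, against 1772 and 1562 with median-ratio scaling and 1346 and 440 with a common sum. At 18 h the counts were 1437 and 2030 as deposited, 1857 and 1610 with median-ratio scaling and 1189 and 705 with a common sum. Between the lines they were 338 and 315 as deposited, 343 and 441 with median-ratio scaling and 309 and 103 with a common sum. Between 18 h and 3 h they were 1922 and 1741 as deposited, 1990 and 1913 with median-ratio scaling and 863 and 1330 with a common sum. The calls of Hbegf, Errfi1 and Rhbdf2 at both EGF times and of Erbb3 at 3 h held under all 18 other settings run.

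Other genes of EGF receptor signalling were described by lists of release factors, inhibitors, sorting factors and adapters. The release list also holds Rhbdf2 and Adam17, and the inhibitor list Errfi1, so their counts repeat calls given above. These lists were chosen with earlier results known as well, so their counts and medians are a description. Their counts stand beside 11.8% of all genes tested called higher and 19.7% lower at 3 h, and 13.2 and 18.7% at 18 h. The medians over all genes were -0.04 and -0.03. Between the lines in water the shares were 3.11 and 2.90%. Of 13 listed genes of ligand release 7 had values, and 2 were called higher at 3 h, Rhbdf2 and Adam17, and none lower, with a list median of -0.01. At 18 h, 4 were higher, again Rhbdf2 and Adam17, with Cd9 and Adam10, and 1 was lower, Adam9, with a median of 0.14. The 18 h call of Adam17 is the one given above as lost under many other settings. Over the settings run, 1 to 3 were higher at 3 h and 3 or 4 at 18 h. Cd9, a tetraspanin that binds the HB-EGF precursor, averaged 576 ± 24.2 FPKM at 18 h against 420.1 ± 6.32 in water (difference 0.46, limma adjusted p = 2.43e-04). It shares 218 bases with another gene, Gm26728, so that the source of part of its reads is uncertain. Adam10, a protease that sheds EGF and betacellulin, averaged 15.4 ± 0.153 against 12.3 ± 0.0981 FPKM at 18 h (difference 0.30, limma adjusted p = 0.00107). Between the lines in water Adam10 was the 1 release gene called, lower in EGFR (difference -0.24, limma adjusted p = 0.0173), and that call was lost without Neo 1, water 1 or water 2 with a common sum and with only the 2 groups fitted (adjusted p up to 0.126). Adam9 differed by -0.13 at 18 h (limma adjusted p = 0.0215), a call lost without any of the 4 libraries compared, with median-ratio scaling (adjusted p = 0.0521) and with a common sum (0.366). Between 18 h and 3 h, 2 release genes were called higher, Cd9 and Adam10, and 2 lower, Rhbdf2 and Adam9, against 17.7 and 16.0% of all genes. The last call of Adam9 (difference -0.12, limma adjusted p = 0.0288) was lost without any of the 4 EGF libraries or either water library, with a common sum and with only the 2 groups fitted (adjusted p up to 0.141), and that of Adam10 with a common sum (adjusted p = 0.0555).

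Of 16 listed receptor inhibitors 10 had values, and 4 were called higher and none lower at each EGF time, where 11.8% of all genes were called higher and 19.7% lower at 3 h, and 13.2 and 18.7% at 18 h. Over the settings run, 4 to 6 were higher at 3 h and 4 at 18 h. The list median was 0.16 at 3 h and 0.09 at 18 h. Errfi1 was joined at both times by Lrig1, a membrane protein that promotes EGFR degradation, Ptprj, a receptor tyrosine phosphatase, and Socs5, a SOCS box protein that binds EGFR. Lrig1 averaged 8.94 ± 0.0198 FPKM in water, 10.97 ± 0.353 at 3 h and 13.4 ± 0.318 at 18 h, with differences of 0.27 (limma adjusted p = 0.00324) and 0.53 (limma adjusted p = 1.09e-04). Unlike Errfi1, Lrig1 was higher at 18 h than at 3 h (difference 0.27, limma adjusted p = 0.00301). Ptprj averaged 3.94 ± 0.123 FPKM in water and 5.92 ± 0.176 at 3 h (difference 0.49, limma adjusted p = 6.86e-04), and it differed by 0.37 at 18 h (limma adjusted p = 0.00133). Ptprj shares 929 bases with Gm13768, which leaves part of its reads uncertain. Socs5 averaged 5.41 ± 0.252 FPKM in water and 7.86 ± 0.209 at 3 h (difference 0.47, limma adjusted p = 0.00188), and it differed by 0.41 at 18 h (limma adjusted p = 0.00221). These 4 genes kept their calls against water under all 18 other settings. Between the lines 1 inhibitor, Errfi1, was called lower and none higher, against 2.90 and 3.11% of all genes. The Errfi1 call is the one given above as lost under some settings. Over all genes, 17.7% were called higher and 16.0% lower from 3 h to 18 h. From 3 h to 18 h Lrig1 was called higher and Errfi1 and Socs4 lower, and the Socs4 call (difference -0.23, limma adjusted p = 0.0401) was lost without 3 h EGF 1, either 18 h library or either water library, with no filter, with a common sum and with only the 2 groups fitted (adjusted p up to 0.177).

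**Figure D4:**
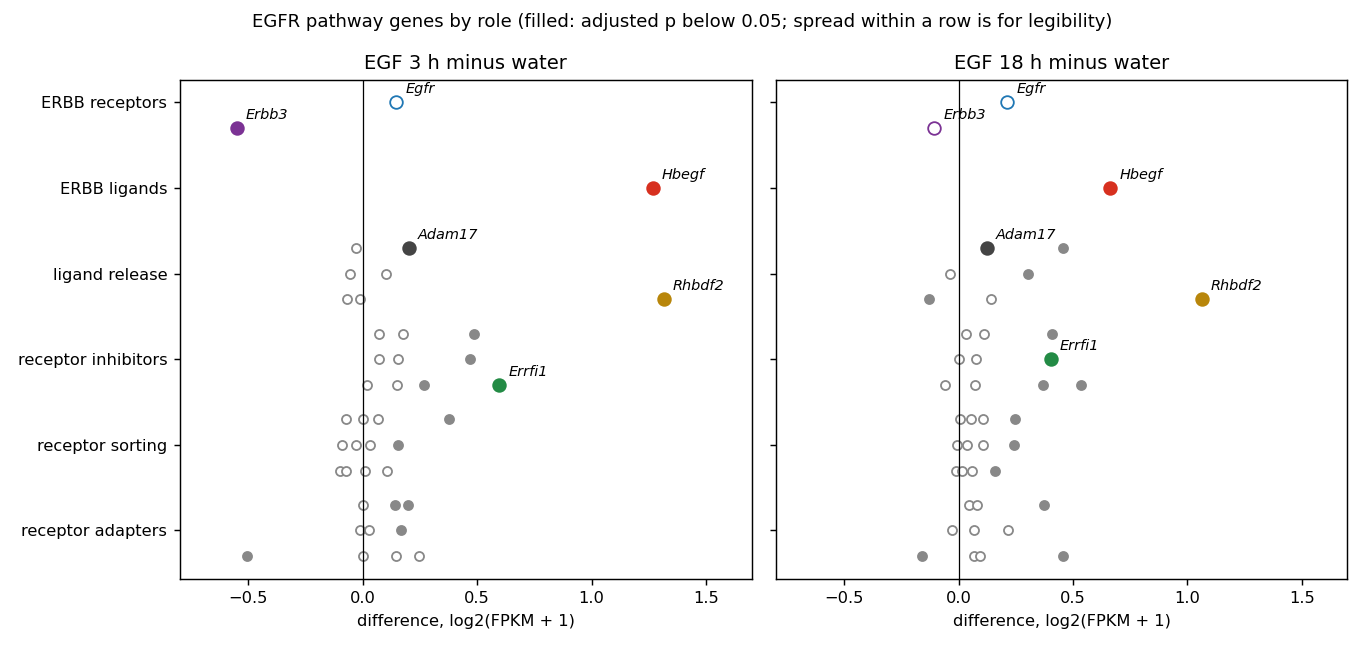
Differences with EGF at 3 h (left) and 18 h (right) on the log2(FPKM + 1) scale (x axis) for the genes with values in each list of EGF receptor signalling (rows), filled where the adjusted p was below 0.05, with the 6 genes in colour and the vertical spread within a row for legibility. The 4 called inhibitors lie above 0 at both times, and no called inhibitor lies below 0.

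Of 14 listed genes of receptor sorting 12 had values, and 2 were called higher at 3 h, 3 at 18 h and none lower, with medians of 0.01 and 0.06. At the same times 11.8 and 13.2% of all genes were called higher, and the list counts ran from 0 to 3 and from 1 to 5 over the settings run. Epn2, an epsin of clathrin-coated pits, differed by 0.38 at 3 h (limma adjusted p = 0.0103) and by 0.25 at 18 h (limma adjusted p = 0.0417). The first call was lost without 3 h EGF 1 (limma adjusted p = 0.0531) and the second under 10 of 18 settings (adjusted p up to 0.197), the removal of any library but water 1 included. Cltc, the clathrin heavy chain, differed by 0.15 at 3 h (limma adjusted p = 0.0145) and 0.16 at 18 h (limma adjusted p = 0.0102). The Cltc calls were lost without water 2, without 3 h EGF 1 or without either 18 h library (adjusted p up to 0.107), and the 18 h call also with a common sum (adjusted p = 0.0647). Rab7, a GTPase of late endosomes, averaged 53.3 ± 0.111 FPKM at 18 h against 44.95 ± 1.32 in water (difference 0.24, limma adjusted p = 0.00308), and it shares 622 bases with Rab7-ps1. Usp8, the deubiquitinase mutated in corticotrope tumours, was among the sorting genes that were not called at either time. From 3 h to 18 h Eps15, Epn1 and Rab7 were called higher, by 0.13 to 0.20, and none lower, against 17.7 and 16.0% of all genes. The Epn1 call was lost without 18 h EGF 1, the Eps15 call without 3 h EGF 1 or either 18 h library, and the Rab7 call without any of the 4 libraries compared. With a common sum none of the sorting genes was called between the times (adjusted p = 0.0604 for Epn1, 0.292 for Eps15 and 0.245 for Rab7), and Eps15 was not called with only the 2 groups fitted either. No sorting gene was called between the lines, where 3.11% of all genes were called higher and 2.90% lower. Cltc, the most abundant sorting gene, differed by -0.01 (limma adjusted p = 0.848), a sign that changed to 0.072 with a common sum.

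Of 12 listed receptor adapters 10 had values, and 3 were called higher and 1 lower at 3 h, with a median of 0.08, against 11.8 and 19.7% of all genes. At 18 h, 2 were higher and 1 lower, with a median of 0.08, against 13.2 and 18.7% of all genes. Over the settings run, 0 to 4 were higher at 3 h and 2 or 3 at 18 h. Grb7, an SH2 adapter that binds ERBB receptors, averaged 20.2 ± 0.874 FPKM in Neo, 15.6 ± 0.188 in EGFR water, 10.7 ± 0.307 at 3 h and 13.8 ± 0.556 at 18 h. Like Erbb3, Grb7 was called lower at 3 h (difference -0.51, limma adjusted p = 4.89e-04) and rose from 3 h to 18 h (difference 0.34, limma adjusted p = 0.00215). It was lower in EGFR than in Neo as well (difference -0.35, limma adjusted p = 0.00905), a call lost when Neo 1 or either water library was left out (adjusted p 0.0572 to 0.0715). Its 18 h difference of -0.16 (limma adjusted p = 0.0326) was lost without any of the 4 libraries compared and with 2 scalings (adjusted p up to 0.163). Shc1, the adapter between EGFR and GRB2, averaged 40.1 ± 0.412 FPKM at 18 h against 28.9 ± 0.161 in water (difference 0.46, limma adjusted p = 1.21e-04). It shares 919 bases with another transcript, and its difference at 3 h was -0.01 (limma adjusted p = 0.769). Plcg1, a phospholipase that docks on EGFR, averaged 11.6 ± 0.722 against 8.75 ± 0.374 FPKM at 18 h (difference 0.37, limma adjusted p = 0.00189). Crkl, Ptpn11 and Nck2 were called higher at 3 h by 0.14 to 0.20, and each call was lost without either water library or without 3 h EGF 2, and that of Ptpn11 without 3 h EGF 1 as well (adjusted p up to 0.118). Nck2 shares 1146 bases with Gm6226, so part of its reads is uncertain. Grb2, which links EGFR to the RAS exchange factor SOS, averaged 10.03 ± 0.0876 FPKM in EGFR water and 14.05 ± 1.44 in Neo (difference -0.44, limma adjusted p = 0.0423). The Grb2 call was lost without any of the 4 libraries of the line comparison (adjusted p up to 0.179), with no filter (0.0799) and without the variance trend (0.0542), and Grb2 shares 655 bases with Gm12791.

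Genes with a pattern most like that of each of the 6 were sought among 2227 protein-coding genes whose group means spanned at least 0.3 on the log2(FPKM + 1) scale. Likeness was Pearson's r over the 8 libraries, which share groups, lines and scaling, and it is a description. For Hbegf the closest were Nfkbie (r = 0.998), an inhibitor of NF-kB, Ttpal (r = 0.996) and Caskin2 (r = 0.995), and 74 genes reached 0.95. Nfkbie averaged 1.70 FPKM in water, 5.09 at 3 h and 3.10 at 18 h. For Rhbdf2 they were Scml4 (r = 0.998), Pip4k2b (r = 0.998), a phosphoinositide kinase, and Trim62 (r = 0.997), with 118 genes at 0.95 or above. Scml4 averaged 9.61 FPKM in water, 25.0 at 3 h and 20.4 at 18 h. For Erbb3 they were Ezh1 (r = 0.994), a histone methyltransferase, Mtus1 (r = 0.993) and Maf1 (r = 0.991), a repressor of RNA polymerase III, with 81 genes at 0.95 or above.

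Errfi1 was closest to Bhlhe40 (r = 0.982), a clock repressor, Bace1 (r = 0.980), a protease, and Srsf9 (r = 0.972), a splicing factor, and 6 genes reached 0.95. Bhlhe40 averaged 6.74 FPKM in Neo, 2.53 in water, 10.1 at 3 h and 6.98 at 18 h, so that it shared with Errfi1 a lowest level in water. For Egfr the closest were Ddit3 (r = 0.975), a stress transcription factor, Rdh11 (r = 0.944) and Ada (r = 0.923), and 1 gene reached 0.95. The Egfr pattern is close to a contrast of 2 Neo libraries with 6 EGFR libraries, so its r rests on those 2. Ddit3 averaged 37.4 FPKM in Neo and 48.3 in water, a much smaller gap than that of Egfr. Adam17 was left out, since its group means spanned less than 0.3.

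**Figure D5:**
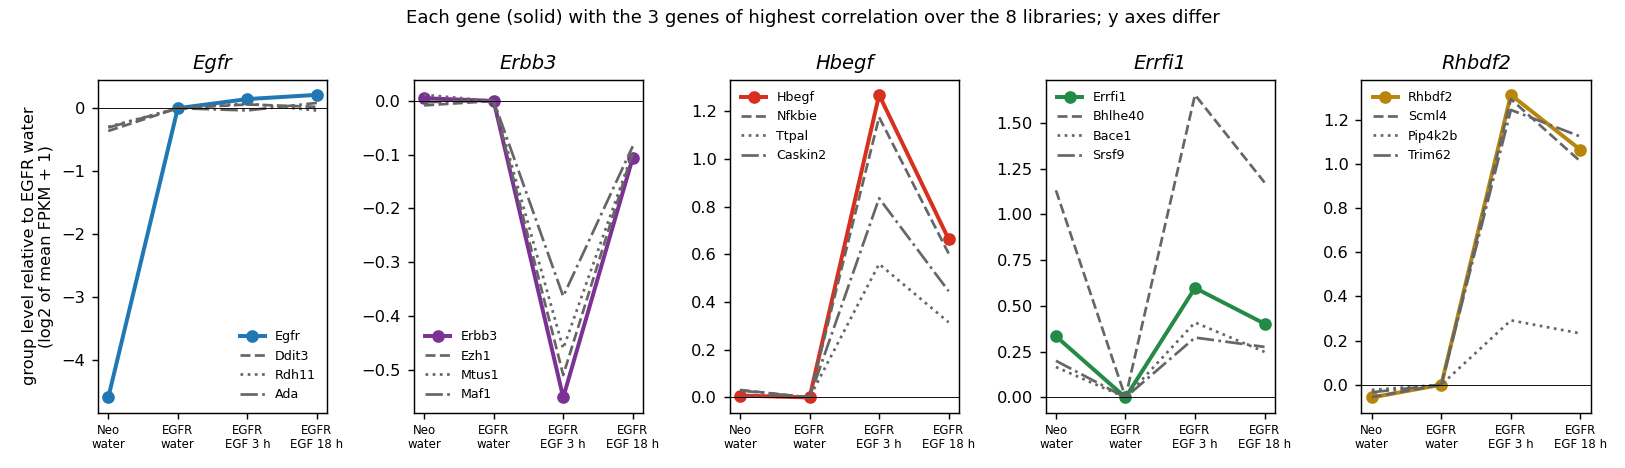
Group level relative to EGFR water (y axis, log2 of mean FPKM + 1, one scale per panel) in the 4 groups (x axis) for 5 of the 6 genes (solid) and the 3 genes with the highest Pearson's r over the 8 libraries (grey). The closest genes were picked by r over these same libraries, so their likeness is set by that choice. They repeat the 3 h peak of Hbegf and Rhbdf2, the 3 h dip of Erbb3 and the low water level of Errfi1. Egfr spans far more than its closest genes.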

How the data were processed

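The authors deposited FPKM for 12193 mouse loci (mm10) in each of 8 libraries, and these values were used as deposited. Per the labels' protocols, RNA was purified on columns and cDNA made with Superscript III. Tools in the submitters' processing notes are TopHat2 2.0.8, Trimmomatic 0.22, DESeq and HTSeq 0.5.4. No source used here gives the FPKM program, annotation or strandedness. FPKM is scaled to each library's total, so a few abundant transcripts can move all others.

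The 6 genes and all lists were chosen with earlier results of these data known. The 10874 genes with 1 FPKM or more in 2 or more libraries were fitted with limma-trend (limma 3.58.1, R 4.3.3) on log2(FPKM + 1), all 4 groups in 1 fit, with Benjamini-Hochberg adjustment within each comparison and a threshold of 0.05. An exact permutation test of 2 libraries against 2 cannot go below p = 0.333 and was not used. Named genes were the 6, up to 4 called genes with the largest difference per list and comparison (the most abundant where none was called), and the 3 genes with the highest Pearson's r with each of the 6 that was called. Alternatives were a pseudocount of 0.1, a filter at 5 FPKM or none, quantile, common-sum and median-ratio scaling, a fit without the variance trend, a block for the replicate number, protein-coding genes only, only the 2 groups compared, and each library left out. In simulations 200 of 10874 genes were shifted 1.5-fold or 2-fold in FPKM + 1, with independent noise and no scaling differences between libraries. Over the 4 comparisons 90 to 94% of 1.5-fold and 95 to 99% of 2-fold shifts were recovered, and 2.58 to 6.09% of calls were wrong. At low FPKM such a shift is a larger fold change of FPKM. Far more genes were called with EGF, so these rates need not hold for the data. Depth was estimated from the FPKM step of 1 fragment in 10 to 21 single-transcript genes per library, in a window chosen after seeing the values. That window, 0.012 to 0.02 FPKM times kilobases, bounds the depth it can give. Strands and gene types came from GENCODE M21, which held 12129 of the loci, and upstream sequences from RefSeq. Shared sequence was found with minimap2 2.31 as at least 200 bases at 95% identity or more. Python 3.11.15, pandas 2.3.3, NumPy 2.4.6 and matplotlib 3.10.9 were also used.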

Additional observations from a re-analysis of the deposited data

Results flagged for a closer look

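For 4 of the 6 genes the difference from water changed between 3 h and 18 h of EGF, 1 called higher and 3 lower, where 17.7% of all genes tested were called higher and 16.0% lower. The test is that of 18 h against 3 h in the same limma fit, where the shared water libraries cancel. The 18 h difference minus the 3 h difference was 0.45 for Erbb3 (limma adjusted p = 9.04e-04), -0.61 for Hbegf (limma adjusted p = 1.52e-04), -0.19 for Errfi1 (limma adjusted p = 0.0197) and -0.25 for Rhbdf2 (limma adjusted p = 0.0201). Both libraries of 1 time lay beyond both of the other for each of these genes. Both 18 h libraries lay above both 3 h libraries for 35.2% of all genes tested and below for 33.1%. The Errfi1 value lost its call without 3 h EGF 2 or 18 h EGF 2 (limma adjusted p = 0.0762 and 0.107), and that of Rhbdf2 without 3 h EGF 1 or 18 h EGF 2 (limma adjusted p = 0.0911 and 0.114). Time in culture and EGF cannot be told apart at 18 h.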

How the results depend on the processing

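With 2 libraries per group the fit has 4 residual degrees of freedom, and FPKM in place of counts leaves the depth behind each value estimated only. Of 270 differences of the 6 genes under settings other than leaving out a library, 257 kept their direction and side of the threshold, 5 lost the call, 4 gained it and 4 changed sign. Of 216 with a library left out these counts were 196, 15, 2 and 3. Both tallies include the line difference of Egfr, the introduced gene, and the differences of 18 h EGF against Neo for Hbegf, Errfi1 and Adam17. A difference that was not called as deposited counts as kept where it stayed uncalled with the same sign, so the tallies do not measure how often calls held. The cause of a changed call was not tested.

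Between the lines, a common sum gave 0.066 for Erbb3, 0.065 for Hbegf, 0.045 for Adam17 and 0.072 for Cltc, against small negative values as deposited. It gave -0.26 for Errfi1, with its call lost. Quantile scaling gave 0.0020 for Erbb3. With a library left out, Erbb3 ran from -0.0155 to 0.00529, Hbegf from -0.0229 to 0.00667, Cltc from -0.0484 to 0.0241 and Errfi1 from -0.35 to -0.32. At 18 h against water, Egfr was called at 0.24 with median-ratio scaling (adjusted p = 0.0365), 0.25 with a common sum (0.0402), and 0.21 among protein-coding genes (0.0269) or with only the 2 groups fitted (0.0190), and it ran from 0.17 to 0.25 with a library left out. Adam17 lost its 18 h call with a common sum (0.16), with quantile scaling (0.11) and with only the 2 groups fitted (0.12), and it ran from 0.099 to 0.15 with a library left out. At 3 h Adam17 ran from 0.18 to 0.22. From 3 h to 18 h Errfi1 ran from -0.25 to -0.14 and Rhbdf2 from -0.31 to -0.19.

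Counts of genes called between the lines were 338 higher and 315 lower. They were 530 higher among protein-coding genes, 135 and 158 with only the 2 groups fitted, and 103 lower with a common sum. A common sum gave 440 lower at 3 h, 705 lower at 18 h and 863 higher from 3 h to 18 h. With a library left out, higher and lower counts ran from 22 to 381 and from 63 to 308 between the lines, from 616 to 1297 and from 808 to 2299 at 3 h, from 847 to 1439 and from 927 to 2171 at 18 h, and from 1056 to 1896 and from 817 to 1749 between 18 h and 3 h. Counts moved by over 1.5 times without any Neo, water or 18 h EGF library between the lines (lowest without water 1), without either water library or 3 h EGF 1 at 3 h, without any library compared at 18 h, and without 3 h EGF 1 (higher calls only) or either 18 h EGF library between the times.

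Same-numbered libraries did not deviate together (correlations of -0.18 to 0.13 over 9164 genes), so the numbers are not taken as pairs. With the replicate block, 183 genes were called higher and 199 lower between the lines, and the 18 h difference of Adam17 of 0.12 lost its call (limma adjusted p = 0.0717). Calls of Grb2 between the lines (limma adjusted p = 0.0652), Epn2 at 18 h (0.0622) and Socs4 from 3 h to 18 h (0.0617) were lost as well, and the block changed no other call named.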
